A study of Homo sapiens with 6 samples.

Results

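The genes described here are 10 genes of the amino acid response that the transcription factor ATF4 directs: ATF4, ATF3, DDIT3, TRIB3, ASNS, CHAC1, DDIT4, SESN2, PSAT1 and PHGDH. They were taken by name, and each had a row among the 34692 rows of the deposited intensity table. IsO-like cells (isthmic organizer, the signalling centre between midbrain and hindbrain) were compared with control neural cells on 6 bead arrays, 3 IsO arrays and 3 Control arrays, each group numbered 1 to 3. All cells came from H9, an established human embryonic stem cell line, and all passed through the same neural induction, with 5 µM dorsomorphin and 10 µM SB431542 during the initial 4 days as floating bodies and then 5 days on Matrigel; these compounds inhibit BMP and activin receptors. For IsO-like cells the protocol further names 100 ng/ml FGF8 and CHIR99021, a GSK3 inhibitor used to activate Wnt signalling, in a range of 0 to 1.2 µM, and the dose of the arrayed cells is not given. Whether arrays of 1 group stand for independent cultures is not stated in the labels, and p-values therefore cover the spread among these samples alone, part of which may be technical.

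When amino acids run short, or when other stresses act, kinases phosphorylate the translation factor eIF2, general protein synthesis slows, and the ATF4 mRNA is translated more. ATF4 protein then binds C/EBP-ATF response elements and raises genes for amino acid synthesis, uptake and tRNA charging, together with feedback regulators such as DDIT3 and TRIB3. Since ATF4 is controlled largely at translation, its mRNA level is not a measure of its protein. In dividing cells such as neural progenitors, serine made by PHGDH and PSAT1 feeds nucleotide and one-carbon metabolism.

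The core of such an element, TGATGNAA read on either strand, was searched for in RefSeq promoter windows of GRCh38.p14, each reaching from 250 bases before a transcription start to 50 bases after it. All 10 genes had a window, 16 in all, and 3 of the 10 genes held a match, which is 30% of them, against 4.46% of the 27305 genes in the table. The wider pathway lists that follow the 10 genes here held 72 genes with a window, and the same motif lay in windows of 19 of these, 26.4%. ASNS is shown because it had the largest difference between the groups, CHAC1 and ATF3 because they hold the other matches, and DDIT4 because it was the other gene whose groups did not overlap although its window holds no match. Sequences run 5′ to 3′ in the direction of the gene, for ASNS and DDIT4 over the 250 bases before the start and for the others over 60 bases around the match, and capitals mark the match.
ASNS, chr7:97872409-97872658, minus strand: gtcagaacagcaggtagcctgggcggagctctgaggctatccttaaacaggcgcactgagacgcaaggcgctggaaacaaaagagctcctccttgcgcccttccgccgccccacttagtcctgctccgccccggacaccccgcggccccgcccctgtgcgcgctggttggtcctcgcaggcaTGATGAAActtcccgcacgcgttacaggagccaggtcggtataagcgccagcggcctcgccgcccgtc
CHAC1, chr15:40953236-40953295, plus strand: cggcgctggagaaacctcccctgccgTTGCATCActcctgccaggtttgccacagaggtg
ATF3, chr1:212565190-212565249, plus strand: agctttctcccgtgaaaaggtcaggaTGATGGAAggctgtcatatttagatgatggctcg
DDIT4, chr10:72273674-72273923, plus strand: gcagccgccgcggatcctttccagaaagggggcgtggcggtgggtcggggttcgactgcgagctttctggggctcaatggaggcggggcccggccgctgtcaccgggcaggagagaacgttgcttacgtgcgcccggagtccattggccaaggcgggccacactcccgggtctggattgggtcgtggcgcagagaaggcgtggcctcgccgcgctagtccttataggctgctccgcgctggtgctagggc
In ASNS the match TGATGAAA began 68 bases before the start on the strand of the gene, and this promoter is known to carry a nutrient-sensing response element that ATF4 binds. The match of CHAC1 (TTGCATCA) lay on the opposite strand and began 209 bases before the start, and that of ATF3 (TGATGGAA) began 191 bases before the more upstream of its starts in the table. A match is a description of letters, not a binding site.

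None of the 8 genes tested was called higher or lower in IsO-like cells, and the largest difference was that of ASNS, which averaged 2.20 times its Control level. Genes were tested with limma's moderated test and called at a Benjamini-Hochberg adjusted p below 0.05 over 14548 rows, of which 1.3% were called (118 higher and 71 lower). ATF3 and PSAT1 did not enter that test: each row combines several probes, and its detection p-value was above 0.05 on every array (0.262 to 0.605 for ATF3 and 0.224 to 0.376 for PSAT1) although its intensity stood far above the lowest detected signal. Such p-values are on another scale than those of rows with 1 probe, so both genes are given from a fit that tests combined rows too, in which 1.31% of 15544 rows and none of the 10 genes were called. The row of ATF4 combines several probes too, but it was detected on every array and entered the main test. Whether ASNS, DDIT4, SESN2 and PHGDH have 1 probe cannot be told. At an unadjusted p below 0.05 stood ASNS and DDIT4, 2 of 8, against 9.92% of all tested rows. Deviations from group means correlated between same-numbered arrays (0.87, 0.39 and 0.65), clearly above other pairs only for number 1. IsO 2 correlated more with Control 3 (0.48), and IsO 3 more with Control 2 (0.70). The labels state no pairing. Each gene was also fitted with the replicate number as a block, under which 5.55% of rows were called and none of the 8 genes was.

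Values are log2 intensities after background correction and quantile normalisation, comparable between arrays for a gene but not between genes. ATF4 itself was bright on every array, at 12.82, 13.23 and 13.50 on the IsO arrays numbered 1, 2 and 3, against 12.82, 13.10 and 13.29 on the Control arrays. The groups overlapped over nearly their whole range, and the lowest array of each was the one numbered 1. The log2 difference was 0.12 ± 0.24 (SE, 3 arrays per group, limma adjusted p = 0.979), with a 95% interval from -0.47 to 0.70.

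ASNS makes asparagine from aspartate and glutamine. It read 12.34, 12.29 and 11.57 on the IsO arrays and 11.54, 10.60 and 10.65 on the Control arrays, in deposited intensity 5606, 4753 and 3291 against 2683, 1736 and 1718. Every IsO array was above every Control array, but the lowest IsO array and the highest Control array almost met. The log2 difference was 1.14 ± 0.35 (SE, 3 arrays per group, limma adjusted p = 0.276), a fold of 2.20 with a 95% interval from 1.24 to 3.90. With the replicate block the error was smaller and the adjusted p was 0.0516 (1.14 ± 0.21), and with combined rows tested in the same blocked fit it was 0.0495, so this gene lay at the threshold on either side of it, where 6.02% of 15544 rows were called. Between arrays of the same number ASNS was higher in IsO-like cells by 0.80, 1.69 and 0.92. With the arrays numbered 2 and 3 alone it differed by 1.30 (adjusted p = 0.111).

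**Figure D1:**
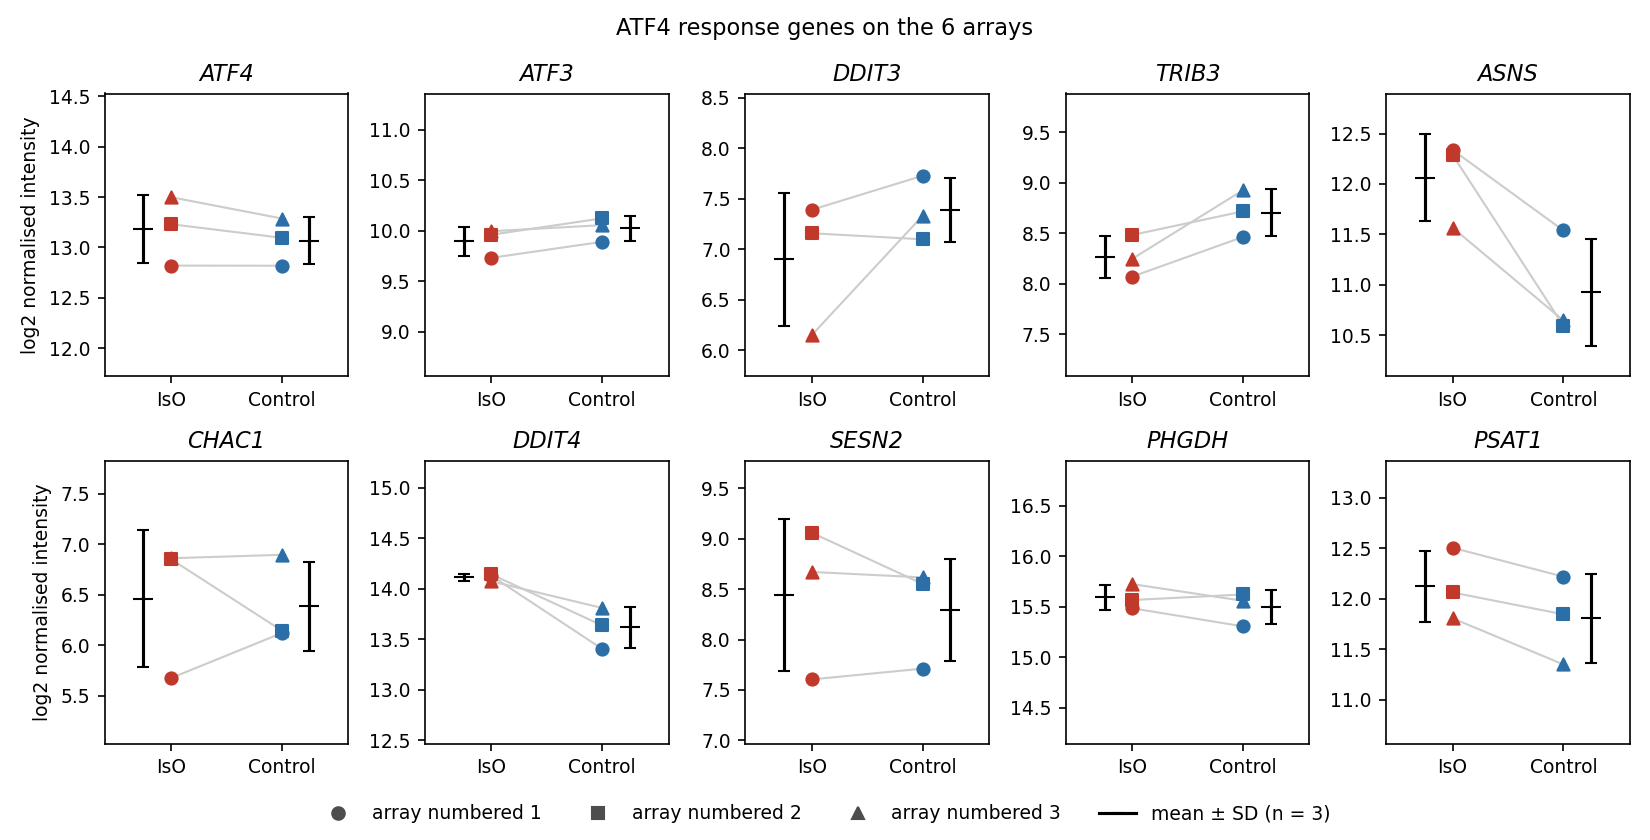
Log2 normalised intensity of the 10 genes on each array, with IsO on the left and Control on the right of each panel; symbols give the array number, grey lines join arrays of the same number, and black bars give the mean ± SD of 3 arrays. Each panel spans the same log2 range. The 3 IsO arrays lie above the 3 Control arrays for ASNS and DDIT4 and overlap them for the other 8 genes.

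DDIT4, also called REDD1, and SESN2 are stress-induced inhibitors of the growth kinase complex mTORC1. DDIT4 read 14.13, 14.14 and 14.07 on the IsO arrays, against 13.40, 13.64 and 13.81 on the Control arrays. The IsO arrays were close together and all above the Control arrays, whose spread was wider (SD 0.04 for IsO and 0.20 for Control, n = 3 each). Its log2 difference was 0.50 ± 0.18 (SE, limma adjusted p = 0.414, or 0.124 with the replicate block), a fold of 1.41 with a 95% interval from 1.04 to 1.91. ASNS and DDIT4 were thus the 2 of 8 tested genes whose groups did not overlap, against 15.4% of all tested rows, and 8.2% of rows had all IsO arrays above. SESN2 read 7.61, 9.06 and 8.67 on the IsO arrays and 7.71, 8.55 and 8.62 on the Control arrays. The array numbered 1 was far below the other arrays in each group, and the groups overlapped (0.15 ± 0.44, adjusted p = 0.988, 95% interval from -0.90 to 1.20). Fitted with the block, its interval narrowed to between -0.27 and 0.57.

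PHGDH and PSAT1 catalyse the initial steps of serine synthesis from a glycolytic intermediate. PHGDH was bright, with deposited intensities of 47353, 48966 and 55301 on the IsO arrays and 37504, 51324 and 46773 on the Control arrays. Its normalised log2 values were 15.48, 15.57 and 15.72 against 15.30, 15.62 and 15.56, which overlapped and differed by 0.10 ± 0.18 (SE, 3 arrays per group, limma adjusted p = 0.975, 95% interval from -0.34 to 0.54). PSAT1 read 12.51, 12.06 and 11.81 on the IsO arrays and 12.22, 11.85 and 11.35 on the Control arrays. In each group the array numbered 1 was highest and that numbered 3 lowest, and between arrays of the same number PSAT1 was higher in IsO-like cells by 0.29, 0.22 and 0.46. The groups overlapped, and the difference was 0.32 ± 0.30 in the fit with combined rows (adjusted p = 0.898, or 0.208 with the block; 95% interval without the block from -0.39 to 1.03).

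The transcription factors and feedback regulators TRIB3, DDIT3 and ATF3 had negative differences, and none was called. TRIB3, a pseudokinase induced by ATF4 that dampens it, read 8.07, 8.48 and 8.25 on the IsO arrays, against 8.46, 8.72 and 8.93 on the Control arrays. The IsO arrays were the lower ones in each same-numbered pair, by 0.39, 0.23 and 0.68, although IsO 2 stood slightly above Control 1. Its difference was -0.44 ± 0.21 (SE, 3 arrays per group, limma adjusted p = 0.619, or 0.155 with the block; 95% interval from -0.94 to 0.07, or with the block from -0.80 to -0.07).

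DDIT3, which encodes the C/EBP family factor CHOP, read 7.39, 7.16 and 6.15 on the IsO arrays and 7.73, 7.10 and 7.33 on the Control arrays. IsO 3 was the lowest array and the others overlapped. The difference was -0.49 ± 0.37 (SE, 3 arrays per group, limma adjusted p = 0.845, 95% interval from -1.36 to 0.39). Without IsO 3 it was -0.11, so the size of this difference rests on that array. ATF3, a stress-induced bZIP factor that can repress its targets, read 9.73, 9.96 and 9.99 on the IsO arrays and 9.89, 10.12 and 10.05 on the Control arrays, overlapping, with a difference of -0.13 ± 0.18 in the fit with combined rows (adjusted p = 0.953, 95% interval from -0.56 to 0.31).

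CHAC1, an enzyme that degrades glutathione, was dim, with deposited intensities of 162, 214 and 225 on the IsO arrays and 171, 180 and 220 on the Control arrays. It was above background on every array, with detection p-values of at most 0.0455. Its normalised log2 values were 5.67, 6.85 and 6.86 against 6.12, 6.14 and 6.89, with no separation of the groups. The difference of 0.08 ± 0.40 (SE, 3 arrays per group, limma adjusted p = 0.995) had a 95% interval from -0.88 to 1.03, and near background the offset of 16 compresses differences.

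**Figure D2:**
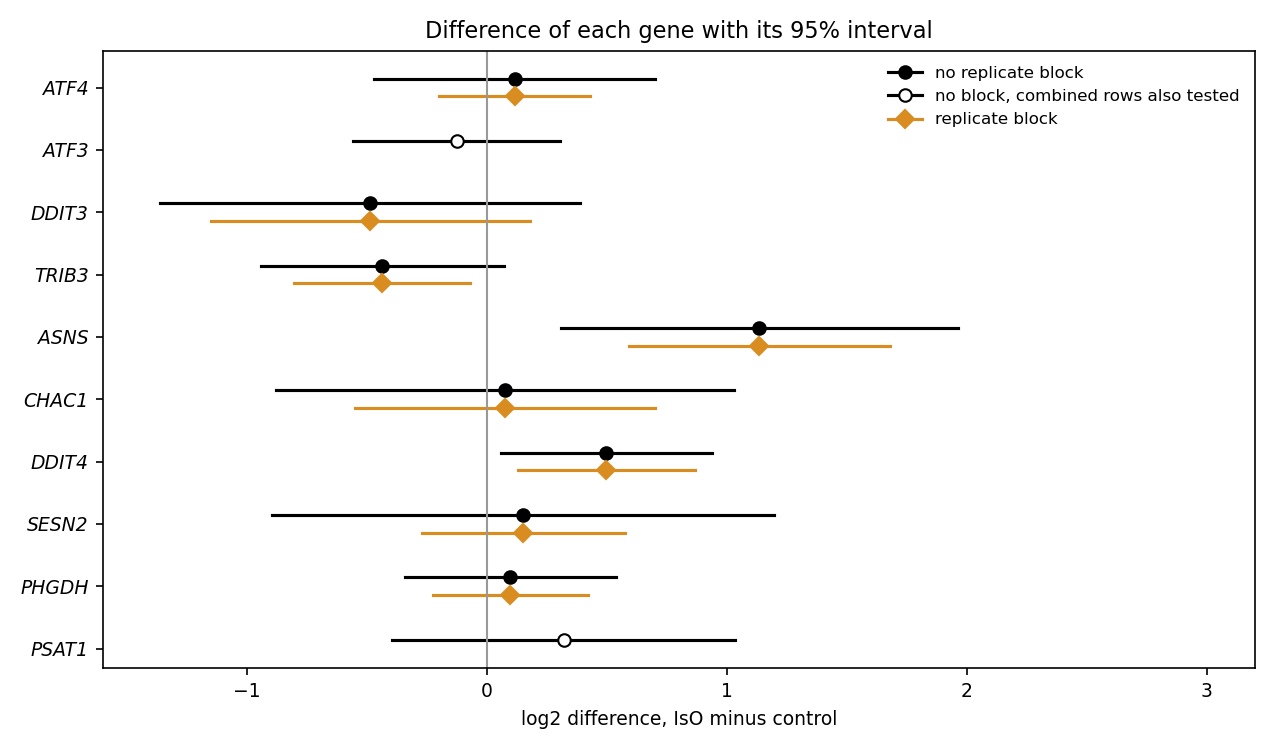
Log2 difference of each gene, IsO minus Control, with 95% intervals from limma, without the replicate block (black; open circles for genes tested only with combined rows) and with it (orange diamonds). ASNS has the largest difference, 1.14, and the interval of ASNS and of DDIT4 lies above 0 in both fits before adjustment over all rows. That of TRIB3 lies below 0 with the block alone, and those of ATF4, DDIT3, CHAC1, SESN2 and PHGDH include 0 in both.

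Across same-numbered arrays, ASNS and DDIT4 were higher in IsO-like cells in 3 of 3 pairs, and so was ATF4, by 0.0011, 0.13 and 0.21; this is 3 of the 8 tested genes against 23.1% of all tested rows. TRIB3 was lower in 3 of 3, 1 of the 8 against 25.1% of rows. PSAT1 was higher and ATF3 lower in 3 of 3 outside the tested rows. Of the 8 tested genes, 6 had a positive and 2 a negative log2 difference, with a median of 0.11, against a median of -0.01 over all tested rows, where 7019 differences were positive and 7529 negative.

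Within groups the 10 genes did not vary as a block. On the arrays numbered 1, ATF4, ATF3, CHAC1, SESN2 and PHGDH were below all of the other 4 arrays, while DDIT3 and PSAT1 were above all of them. For the 8 tested genes that makes 5 separated from the rest by number, 62.5%, near the 53.4% of all tested rows. The deviations of SESN2 from its group mean were -0.84 on IsO 1 and -0.58 on Control 1, the same direction as ATF4 (-0.36 and -0.25), whereas ASNS deviated upward (0.27 and 0.61). Over the 6 arrays, the rows outside this set most like the mean standardised level of the 8 tested genes were LOC100133478, RPS2, HS.543803, LOC641941 and CCDC28B, with Pearson correlations of 0.999, 0.997, 0.987, 0.985 and 0.984. RPS2 encodes a protein of the small ribosomal subunit. These were the 5 highest correlations in a search of all tested rows outside the set (14548 rows with the 8 genes counted in). They are descriptions over 6 arrays that share the array-number pattern.

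**Figure D3:**
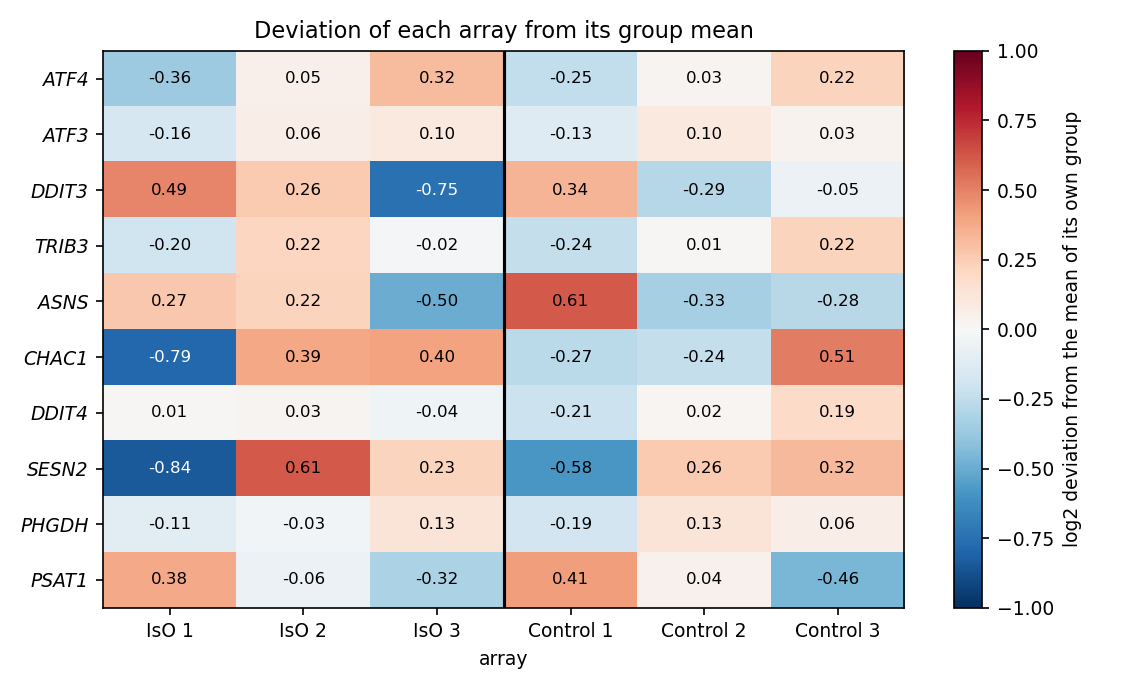
Deviation of each array from the mean of its own group, in log2 units, for the 10 genes, with the 3 IsO arrays left of the line and the 3 Control arrays right of it. The arrays numbered 1 are low for SESN2 (-0.84 and -0.58) and ATF4 (-0.36 and -0.25), and high for PSAT1 (0.38 and 0.41) and DDIT3 (0.49 and 0.34), in both groups.

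Lists of the wider pathway held no called gene in the fit without the block, which called 1.3% of all tested rows. The genes below that were called with the block stand beside 5.55% of all tested rows called in that fit. Of the eIF2 kinases, eIF2 and eIF2B subunits and their regulators, 14 were tested, 11 with a positive difference and a median of 0.12. EIF2AK1, the kinase known for sensing heme shortage and mitochondrial stress, read 11.92, 11.05 and 11.10 on the IsO arrays and 11.23, 10.45 and 10.14 on the Control arrays. The arrays numbered 1 were highest in each group, and the difference of 0.75 ± 0.37 (SE, 3 arrays per group, limma adjusted p = 0.628) was called with the replicate block (adjusted p = 0.0482). Without IsO 1 it was 0.47 in the fit without the block. EIF2S3, a subunit of eIF2, differed by 0.67 ± 0.42 (adjusted p = 0.771). EIF2AK4, the kinase that senses uncharged tRNA, and EIF2AK3, that of the endoplasmic reticulum, were chosen after their values were seen and differed by -0.12 ± 0.25 and 0.01 ± 0.30 (adjusted p = 0.978 and 0.999).

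Of 11 tested enzymes of serine, one-carbon and amino acid synthesis, 8 had a positive difference, with a median of 0.16. MTHFD2, a mitochondrial folate enzyme and a known ATF4 target, read 11.23, 9.92 and 8.90 on the IsO arrays and 10.15, 8.43 and 7.86 on the Control arrays. It was higher in IsO-like cells in each same-numbered pair, by 1.08, 1.49 and 1.04, while arrays of a group were spread over more than that. The difference of 1.20 ± 0.77 (SE, 3 arrays per group, limma adjusted p = 0.780) was called with the replicate block (1.20 ± 0.15, adjusted p = 0.0218). Its row combines several probes and passed the detection filter on 1 IsO array and 2 Control arrays. Without the block, the difference was 0.59 without IsO 1, 0.73 without Control 3 and 1.87 without Control 1, and it was 0.56 with the background inferred over all rows. That setting gave background means of 258 to 296 (SDs of 759 to 903), above the median intensities of 144 to 157. The main setting gave means of 122 to 132. PYCR1, an enzyme of proline synthesis, read 9.02, 9.84 and 9.42 against 8.83, 8.79 and 8.83, without overlap, and differed by 0.61 ± 0.24 (adjusted p = 0.471, or 0.152 with the block). PSPH and SHMT2, which act after PSAT1 in the making of serine and glycine and were chosen after their values were seen, differed by -0.07 ± 0.29 and 0.32 ± 0.21 (adjusted p = 0.995 and 0.790).

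Among 13 listed genes reported elsewhere as ATF4 targets or related to the sestrins and DDIT4, 10 were tested, 6 of them with a positive difference and a median of 0.15. DDIT4L, a paralogue of DDIT4 that also restrains mTORC1, ran opposite to DDIT4: it read 8.34, 7.22 and 5.82 on the IsO arrays and 10.56, 9.03 and 9.26 on the Control arrays, with every IsO array below every Control array. Its difference was -2.49 ± 0.70 (SE, 3 arrays per group, limma adjusted p = 0.226) and was called with the replicate block (adjusted p = 0.0254). It was -0.515 with the background inferred over all rows, a setting whose background mean exceeded the median intensity on every array. XPOT, which exports tRNA from the nucleus, differed by 0.71 ± 0.61 (adjusted p = 0.883), with 2 of 3 Control arrays above background.

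Amino acid transporters (9 tested, 5 positive, median 0.21) and cytosolic aminoacyl-tRNA synthetases (8 tested, 7 positive, median 0.22) held no gene called with or without the block. SLC7A1, the arginine and lysine carrier, and SLC6A9, a glycine carrier, had the largest differences among these 9 transporters, 0.48 ± 0.26 and 0.32 ± 0.36 (SE, 3 arrays per group, limma adjusted p = 0.706 and 0.927). SLC6A9 passed the detection filter through its 3 IsO arrays alone, with 0 of 3 Control arrays detected. Its row combines several probes, so these p-values are on another scale than those of rows with 1 probe. Its intensity exceeded the lowest detected signal of rows with 1 probe on 3 of 3 arrays of each group. SLC38A1, a glutamine carrier tested only with combined rows, differed by more than either, -0.52 ± 0.70 (adjusted p = 0.944 in that fit), and was lower in 3 of 3 same-numbered pairs. SLC7A11, the cystine carrier, stayed at background on all 6 arrays. TARS and LARS, the threonyl and leucyl synthetases, differed by 0.72 ± 1.11 and 0.47 ± 1.01 (adjusted p = 0.957 and 0.979), and without IsO 1 by -0.42 and -0.56. For 3 of 12 synthetases no row could be matched to the gene alone, and these were not used here. The bZIP partners of ATF4 (6 tested, 3 positive, median -0.10) were led by CEBPA at -0.72 ± 0.47 and CEBPD at 0.53 ± 0.24 (adjusted p = 0.788 and 0.551), CEBPD without overlap between groups. The difference of CEBPA was -0.25 without IsO 1, and with the background inferred over all rows the differences were -0.07 for CEBPA and 0.03 for CEBPD. The deposited intensities of CEBPD, 191 to 276, were below the background mean of that setting on every array.

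The chaperones and other genes of the ATF6 and XBP1 branch, which answer to misfolded protein in the endoplasmic reticulum, had a negative difference in 11 of 16 tested members, with a median of -0.22, and none was called in either fit. HSPA5, the main chaperone of that compartment, read 10.49, 9.30 and 9.11 on the IsO arrays and 10.81, 10.36 and 9.66 on the Control arrays, overlapping, and differed by -0.65 ± 0.45 (SE, 3 arrays per group, limma adjusted p = 0.817). ATF6 differed by 0.73 ± 1.32 (adjusted p = 0.972), with 2 IsO arrays and 1 Control array above background.

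**Figure D4:**
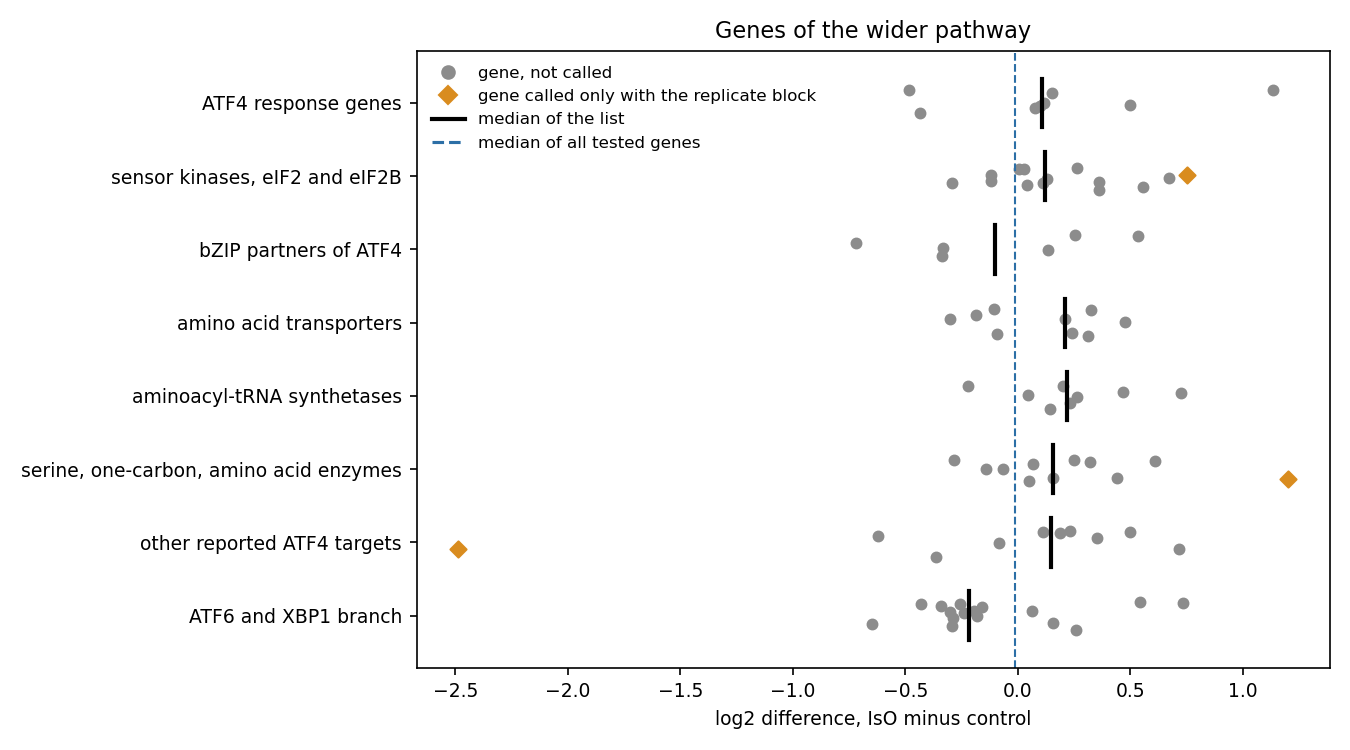
Log2 difference, IsO minus Control, of every tested gene of the ATF4 response and of the wider pathway lists; vertical jitter only separates points. Black bars give list medians, from -0.22 for the ATF6 and XBP1 branch to 0.22 for the aminoacyl-tRNA synthetases, the dashed line gives the median of all tested genes, and orange diamonds are the 3 genes called with the replicate block alone, EIF2AK1, MTHFD2 and DDIT4L. The fit with the block called 5.55% of all tested rows.

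The labels were checked on marker genes. Of 6 tested isthmic organizer markers, 5 rose in IsO-like cells (EN1, EN2, WNT1, FGF17 and PAX8), while PAX5 stayed at background on all 6 arrays. EN1, EN2 and PAX8 were detected on 3 of 3 IsO arrays and 0 of 3 Control arrays, so they entered the test through the IsO arrays alone, whereas WNT1 and FGF17 were detected on all 6. FGF8 differed by 0.96 ± 0.46 (SE, 3 arrays per group, limma adjusted p = 0.611) and was called with the replicate block (adjusted p = 0.0435), higher in IsO-like cells in 3 of 3 pairs. Of the markers of other cell types, 1 of 6 tested neuronal (NEFM) and 1 of 5 neural crest markers (TWIST1) were called higher in IsO-like cells, 1 of 6 neural progenitor markers (SOX2) was called lower, and 0 of 4 mesenchyme and 0 of 4 pluripotency markers were called. With the replicate block these counts were 2 neuronal, 4 neural crest and 1 mesenchyme marker higher and 4 neural progenitor markers lower. The summed background-corrected level of 8 neuronal markers ranged from 22610 to 26578 on the IsO arrays and from 13580 to 17180 on the Control arrays. The neuronal sums rested mostly on TUBB3, which was not called in either fit. TUBB3 differed by 0.51 ± 0.20 (SE, 3 arrays per group, limma adjusted p = 0.47). All 6 tested neuronal markers had a positive difference, and ELAVL4, which was not tested, exceeded background on 1 IsO array alone. DCX, 1 of the 6 and a combined row, had detection p-values below 0.05 on 3 of 3 Control and 0 of 3 IsO arrays. ELAVL3, tested only with combined rows, was called higher in that fit (1.62 ± 0.24, limma adjusted p = 0.0338). The summed level of 7 neural progenitor markers ranged from 31231 to 58173 on the IsO arrays and from 80449 to 109802 on the Control arrays. Sums of 7 neural crest markers ranged from 1951 to 10397 on the IsO arrays and from 591 to 2384 on the Control arrays, highest in each group on the array numbered 1, and overlapped between groups, as did the pluripotency sums. Of 6 mesenchyme markers (sums of 1886 to 4021 on IsO and 1041 to 1546 on Control arrays), COL1A1, COL1A2, COL3A1 and PDGFRB were detected on all 6 arrays. LUM and DCN, whose rows combine several probes, had detection p-values above 0.05 on every array. Their intensities passed the lowest detected signal of rows with 1 probe on 2 IsO arrays and 1 IsO array. Of 6 pluripotency markers, NANOG stayed at background on all 6 arrays and POU5F1 exceeded background on 1 IsO array. Their sums (35461 to 39144 on IsO and 33235 to 37995 on Control arrays) rested mostly on LIN28A, at log2 14.90 to 15.17 over the 6 arrays. The part of these markers in the differences of ASNS and DDIT4 was not tested, and in bulk RNA a change in the share of a cell type and a change per cell cannot be told apart.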

How the data were processed

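Total RNA of 3 IsO and 3 Control samples was hybridised to Illumina bead arrays and summarised in GenomeStudio 2011.1, per the submitters' processing notes. The deposited table holds linear intensities without normalisation or background subtraction, and, per the file headers, a detection p-value for each row and array, set against negative controls. The authors' processed log2 table holds quantile-normalised log2 intensities without background correction (largest difference from the same step run here 0.0075), and served as an alternative. By the spacing of the deposited p-values in steps of 1 over 770, 27001 rows held 1 probe (or had p-values of 0 on every array, 5309 rows, where this cannot be told) and 7691 combined several. No genome build is given for the array data in the sources used here, and the promoter windows are those of GRCh38.p14.

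Background was corrected by normexp (limma 3.58.1, R 4.3.3) with negative controls inferred from rows of 1 probe (means of 122 to 132, SDs of 20.3 to 24.1), offset 16, then quantile normalisation and log2. Median intensities were 144 to 157, and 13999 to 15232 rows per array had a detection p below 0.05; the number of arrays limits the precision. Rows detected on at least 3 arrays were tested with lmFit and eBayes, with no covariate, and adjusted p-values are those of this limma test unless another fit is named. Quantile normalisation hides a shift of most genes. The code was tested on simulated data. Deviations from group means correlated between same-numbered arrays at 0.87, 0.39 and 0.65, clearly above other pairs only for number 1. IsO 2 and IsO 3 correlated more with each other's partner (0.48 and 0.70). As the labels state no pairing, the replicate block is given only as a further fit beside the main one. The genes and lists were chosen with earlier results of these data known. Named genes are the 10 genes and, per list, called genes and the 2 largest differences among the other tested genes. EIF2AK3, EIF2AK4, PSPH, SHMT2, SLC38A1 and SLC7A11 were named outside this rule. Alternatives covered background, offset, normalisation, filter, prior, array weights, block and left-out arrays.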

Additional observations from a re-analysis of the deposited data

How the results depend on the processing

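Over 21 alternatives, 1 of them (combined rows with the replicate block) added after seeing the data, the count of called genes among the 10 was 0 in 19, 1 (ASNS) with combined rows and the block together, and 2 (ASNS and DDIT4) with array weights. The weights did not converge and gave IsO 2 a weight of 71.0 against at most 1.46 for any other array, so that setting rests largely on 1 array. Leaving out 1 array gave 0 to 0 called genes among the 10. Inferring the background over all rows gave background means of 258 to 296, above the median intensities of 144 to 157. The count over all tested rows was 189, and 101 with background inferred over all rows, 321 with cyclic loess, 4604 with array weights, 807 with the replicate block, 349 on the arrays numbered 2 and 3 alone, 936 with combined rows and the block, and 40 to 158 when 1 array was left out (40 without IsO 2, 58 without IsO 3, 47 without Control 2 and 42 without Control 3); the cause was not tested. The log2 difference of ASNS was positive in every alternative (0.97 to 1.61), as was that of DDIT4 (0.38 to 0.59), and that of TRIB3 was negative (-0.56 to -0.08). When 1 array was left out, the direction turned for ATF4 (-0.042 to 0.30), CHAC1 (-0.12 to 0.47), SESN2 (-0.16 to 0.57), ATF6 (-0.47 to 1.80), LARS (-0.56 to 1.20) and TARS (-0.42 to 1.53); for PHGDH it turned with array weights (-0.0098). ATF4 was negative without IsO 3 or Control 1, CHAC1 without IsO 2, IsO 3, Control 1 or Control 2, SESN2 without IsO 2 or Control 1, and ATF6, LARS and TARS without IsO 1. Leaving out 1 array gave 0.59 to 1.87 for MTHFD2, 0.47 to 1.06 for EIF2AK1, -1.02 to -0.25 for CEBPA and 0.13 to 0.69 for SLC6A9. Among the named genes of the response, the replicate block changed the calls of EIF2AK1, MTHFD2 and DDIT4L, and that of ASNS where combined rows were also tested. Among the named markers, the block changed the calls of FGF8 and COL3A1 (limma adjusted p = 0.114 without it and 0.0362 with it for COL3A1). MTHFD2 and SLC6A9 were not tested under the stricter detection filter.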
